A study of Mus musculus with 12 samples.

Results

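The genes described here are 40 genes of the cell division cycle, read in whole mouse ovary on 2-colour microarrays. They were chosen by name: cyclins, cyclin-dependent kinases, the machinery that copies DNA, and the kinases, motors and checkpoint proteins that run mitosis. All 40 had at least 1 probe on the array, 56 probes in all, and each gene was read from its brightest probe. Of these genes, 39 passed the filter on dim probes and were tested, out of 19054 genes and transcripts tested on the array. The cyclin Ccne2 was well above background in 0 of 12 samples and was not tested. They fall into 8 genes of the G1 phase and the entry into S phase (7 tested), 11 of DNA replication and 21 of mitosis.

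Dividing cells commit to a new cycle in G1, when D-type cyclins with Cdk4 and then E-type cyclins with Cdk2 release E2F transcription factors. E2F switches on the genes for origin licensing and DNA synthesis, and the mitotic genes follow later, under the complexes that act through CCAAT and CHR elements and under Foxm1. In the adult ovary most dividing cells are the granulosa cells of growing follicles, so the RNA of these genes in whole ovary depends on how many follicles are growing as well as on the rate of division. In bulk tissue, fewer dividing cells and less of these RNAs per dividing cell cannot be told apart.

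Ovaries came from adult female C57BL/6J mice, 2 months old, in 3 diet groups of 4 females each. The early-life group received a diet deficient in vitamin D only in early life, the peripubertal group received it only around puberty, and the control group received a normal diet. Each of 6 arrays carried 2 females of 1 group, 1 labelled with Cy3 (replicates 1 and 3) and 1 with Cy5 (replicates 2 and 4). Slide 1 held the 4 arrays of early-life and control ovaries and slide 2 both peripubertal arrays; an effect of the slide and one of the peripubertal diet cannot be told apart. Levels are normalized log2 intensities, in which a step of 1 is a factor of 2, and levels of different probes are not compared.

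A limit of the deposit applies to every direction given against early-life or control samples. The columns that the authors' deposited value table names control matched the scanner channels labelled early-life, and the reverse, with correlations of at least 0.99977. The scanner files are followed here. If the value table has the names right, each early-life minus control difference turns its sign, and the peripubertal differences from the control and from the early-life group change places. The peripubertal difference from the mean of both groups does not depend on these names and is given for that reason.

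The tissue label was checked on defining markers. All 9 granulosa cell markers and all 11 oocyte markers were well above background in 12 of 12 samples. Markers of the oviduct epithelium, the tube next to the ovary, were present too, with 7 of 8 tested, each detected above background in 10 or more of the 12 samples, and they varied widely between samples. The share of array features well above background ran from 59.3% to 65.5% per sample, and the median signal was 6.85 to 9.49 times the background.

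Letters of known promoter elements were counted by class, independently of the arrays. A window from 250 bases before to 50 bases after the start was listed for 31 of the 40 members in RefSeq (build GRCm38.p6), 2 of them with more than 1 window. Both strands were searched for CCAAT, for the cell cycle homology region (CHR, written TTTGAA or TTCGAA, of which the last reads the same on both strands) and for an E2F site written TTTCCCGC, TTTCGCGC, TTTGCCGC or TTTGGCGC. A gene was counted if any of its windows held the letters, for members and for all 27025 genes with a window. CCAAT stood in 13 of 16 mitosis, 7 of 10 replication and 2 of 5 G1/S members, against 41.1% of all genes. CHR letters stood in 12 of 16 mitosis, 2 of 10 replication and 0 of 5 G1/S members, against 21.7% of all genes. E2F letters stood in 1 of 16 mitosis, 6 of 10 replication and 1 of 5 G1/S members, against 2.6% of all genes. CCAAT and CHR together were found for 12 of 16 mitosis members, against 8.61% of all genes.

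The windows of 4 genes are printed because these have the smallest p-values of their class, in any comparison, among members with such letters. Top2a (chr11:99024140-99024439, minus strand), the topoisomerase that untangles sister DNA before chromosomes separate, and Cdk1 (chr10:69352863-69353162, minus strand), the kinase that starts mitosis, stand for the mitosis class. Mcm5 (chr8:75109259-75109558, plus strand), a subunit of the replicative helicase, and Cdc6 (chr11:98907901-98908200, plus strand), which loads that helicase onto origins, stand for the replication class. Capitals mark CCAAT and CHR letters in the mitosis windows and E2F letters in the replication windows, on either strand. All run 5′ to 3′ on the gene's own strand.
Top2a: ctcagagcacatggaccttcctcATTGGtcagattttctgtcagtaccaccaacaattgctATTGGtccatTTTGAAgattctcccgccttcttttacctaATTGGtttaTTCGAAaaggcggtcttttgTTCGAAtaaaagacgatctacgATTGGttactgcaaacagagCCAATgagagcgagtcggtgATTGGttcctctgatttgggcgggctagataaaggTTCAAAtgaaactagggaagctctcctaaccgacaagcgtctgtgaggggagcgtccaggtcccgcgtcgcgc
Cdk1: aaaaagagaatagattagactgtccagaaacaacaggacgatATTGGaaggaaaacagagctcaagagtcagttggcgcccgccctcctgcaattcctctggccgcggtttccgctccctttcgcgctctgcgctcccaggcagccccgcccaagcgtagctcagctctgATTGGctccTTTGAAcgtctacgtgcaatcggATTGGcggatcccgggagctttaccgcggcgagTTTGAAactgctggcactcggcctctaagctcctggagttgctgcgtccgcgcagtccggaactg
Mcm5: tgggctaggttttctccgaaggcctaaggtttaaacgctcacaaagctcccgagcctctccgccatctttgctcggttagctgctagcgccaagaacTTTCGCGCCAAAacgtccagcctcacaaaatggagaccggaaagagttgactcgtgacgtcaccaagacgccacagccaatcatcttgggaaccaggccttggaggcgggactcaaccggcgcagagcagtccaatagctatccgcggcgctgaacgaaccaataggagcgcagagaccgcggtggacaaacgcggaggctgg
Cdc6: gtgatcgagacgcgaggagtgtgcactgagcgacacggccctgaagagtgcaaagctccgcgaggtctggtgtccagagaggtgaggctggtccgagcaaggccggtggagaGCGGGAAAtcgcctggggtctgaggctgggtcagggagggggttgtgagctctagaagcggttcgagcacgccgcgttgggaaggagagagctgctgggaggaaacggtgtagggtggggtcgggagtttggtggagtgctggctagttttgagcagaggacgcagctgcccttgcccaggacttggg
The window of Top2a holds 6 CCAAT letters and 4 CHR stretches, and that of Cdk1 holds 3 and 2. In Mcm5, 2 E2F matches on opposite strands overlap, and Cdc6 holds 1. A match is a run of letters and not a measured binding site.

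By the scanner labels, the cell cycle genes as a group were low in both vitamin D deficient groups relative to the control, by small steps. No member passed the test in any comparison. In early-life against control ovaries 37 of 39 tested members had a difference under 0, where 54.2% of all genes did. In peripubertal against control ovaries it was 36 of 38, where 48.0% of all genes were under 0. The median member differed by -0.21 and -0.28 on the log2 scale, against -0.02 and 0.01 over all genes tested. These 2 comparisons share the same 4 control samples, so the second is not separate evidence of the first. With the names exchanged, as in the value table, the 37 members would be above 0 in early-life minus control. In peripubertal minus control 18 of 38 would then be under 0, so the common low direction depends on the scanner labels. With the mean of the oviduct marker list as a covariate, a fit added after the data were seen, the early-life count was 25 of 39 and the class medians were -0.07 (G1/S), -0.05 (replication) and -0.01 (mitosis). In the same fit the peripubertal count was 37, with medians of -0.26, -0.42 and -0.51, and in early-life minus peripubertal ovaries 3 members were under 0. The early-life medians were closer to 0 with the covariate and the peripubertal ones further from 0. The oviduct list itself differed between the groups, with means of 1.64 in early-life, -1.54 in peripubertal and -0.10 in control ovaries. Oviduct content and group therefore cannot be told apart in this fit. Tests were limma's moderated test with dye as a covariate and array as a random block, with Benjamini-Hochberg adjustment over all genes.

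At adjusted p under 0.05, 0 of 39 members were called in the early-life against control comparison, where 0% of all genes were called, and 6 had an unadjusted p under 0.05, all lower, against 13.7% of all genes. For peripubertal against control, 0 of 38 were called, where 0.246% of all genes were, and 7 had an unadjusted p under 0.05, all lower, against 11.2% of all genes. Those shares of members, 15.4% and 18.4%, lie near or modestly above the background, so the common direction of the members is described here and not the size of single ones. Early-life against peripubertal ovaries gave 0 of 38 members called beside 2.34% of all genes, and 2 with an unadjusted p under 0.05, or 5.26%, beside 23.5% of all genes. In that comparison 20 of 38 members were under 0, near the 54.7% of all genes. Peripubertal ovaries against the mean of the other groups gave 0 of 38 called beside 0.771%, 5 with an unadjusted p under 0.05 (13.2%) beside 18.5%, and 30 of 38 under 0 beside 45.8% of all genes.

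**Figure D1:**
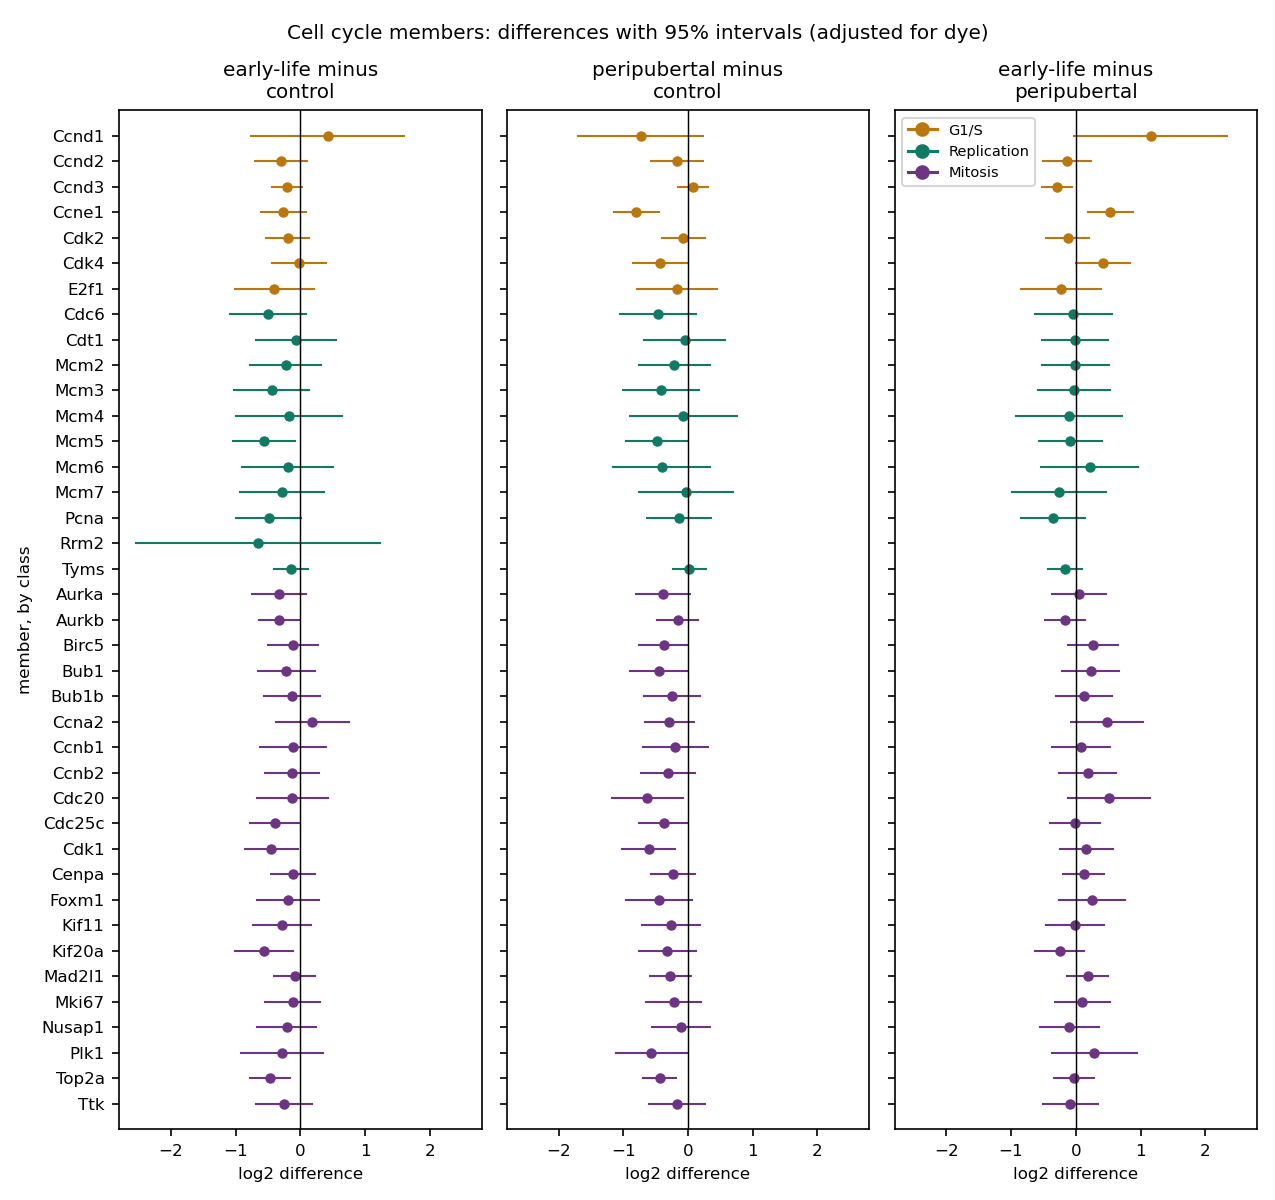
Log2 differences of the 39 tested members (points) with 95% intervals (lines) in 3 comparisons, rows grouped by class. Most points lie left of 0 in both comparisons with the control, 37 of 39 and 36 of 38, while in early-life minus peripubertal 20 of 38 do. The interval of Rrm2 is wide because only 4 of its values were kept.

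By class, the differences from the control were small, and their size moved with single samples. The G1/S, replication and mitosis medians were -0.21, -0.29 and -0.21 in early-life against control ovaries, and -0.17, -0.18 and -0.31 in peripubertal against control ovaries. All 11 replication members were under 0 in the first and all 21 mitosis members in the second. With 1 sample left out the early-life replication median ran from -0.49 to -0.17, closer to 0 without early-life replicate 1 or 4 and further from it without early-life replicate 2 or control replicate 4. In early-life against peripubertal ovaries the replication median was -0.06 with 9 of 10 members under 0, and the mitosis median was 0.12 with 7 of 21 under 0. Single samples turned both: the replication median ran from -0.21 to 0.07 with 1 sample left out, above 0 without early-life replicate 1 or 4 or peripubertal replicate 4, and the mitosis median from -0.03 to 0.19, under 0 without early-life or peripubertal replicate 2. Against the mean of the other groups, a comparison that does not depend on the disputed names, peripubertal ovaries had medians of -0.02, -0.06 and -0.21, with 4 of 7, 6 of 10 and 20 of 21 members under 0. The difference between classes was not tested.

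**Figure D2:**
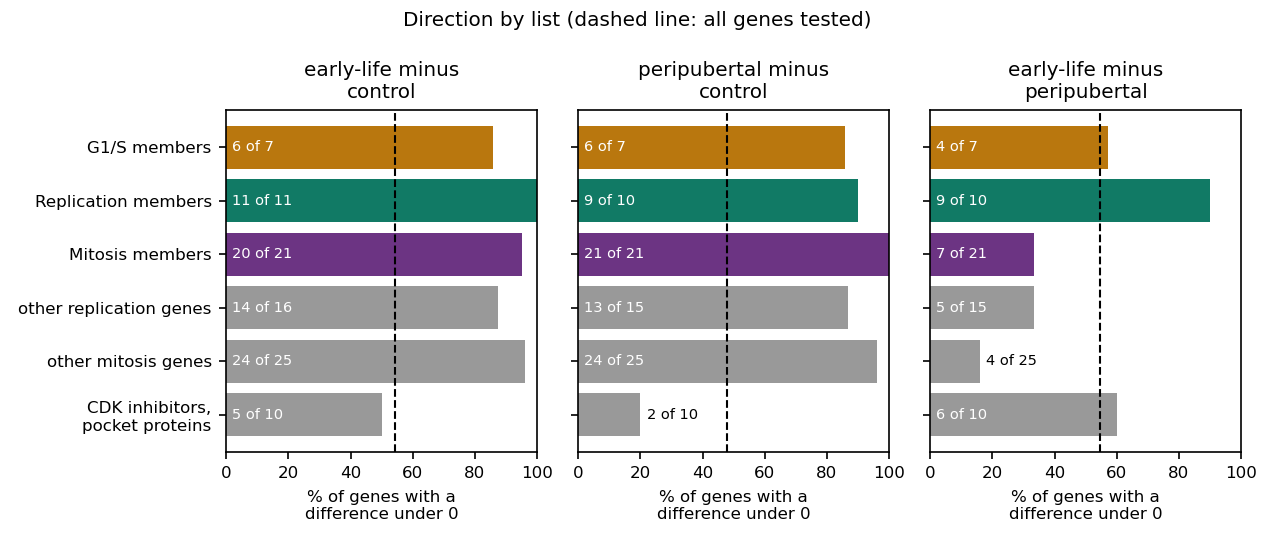
Percent of genes with a difference under 0, for the 3 member classes and 3 lists of other cell cycle genes, with counts on the bars; the dashed line gives all genes tested (54.2%, 48.0% and 54.7%). Replication and mitosis lists lie right of the line in both comparisons with the control, and the inhibitor list does not.

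G1/S members hold the clearest single difference. Ccne1 encodes cyclin E1, which activates Cdk2 at the entry into S phase. Its brightest probe (mm9 chr7:38882937-38882960, as the files place it) read 10.35, 10.61, 10.53 and 10.11 in early-life replicates 1 to 4, 9.85, 9.99, 9.66 and 9.96 in peripubertal ovaries, and 10.58, 10.77, 10.46 and 10.85 in control ovaries. All 4 peripubertal samples lay below all 8 others, and the early-life and control ranges overlapped. Means were 10.40 ± 0.22 in early-life, 9.87 ± 0.15 in peripubertal and 10.67 ± 0.18 in control ovaries (SD, n = 4 each). The difference was -0.80 ± 0.16 (SE; 0.574 times; limma adjusted p = 0.0937) for peripubertal against control, and -0.67 ± 0.13 (adjusted p = 0.0556) against the mean of both other groups. Early-life exceeded peripubertal ovaries by 0.53 ± 0.16 (adjusted p = 0.0907). None passed 0.05, although 3 alternative fits, among them the one without early-life replicate 4, did call the peripubertal against control difference (adjusted p = 0.0282 without that sample).

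A second probe of Ccne1, well above background in only 4 of 12 samples, did not show this size. Its values were 6.69, 6.81, 6.65 and 6.80 in early-life replicates 1 to 4, 6.64, 7.01, 6.68 and 6.80 in peripubertal, and 6.75, 7.02, 6.88 and 7.06 in control ovaries. Peripubertal ovaries differed from control ovaries by -0.14 ± 0.08 on it (unadjusted p = 0.112), and early-life from peripubertal ovaries by -0.05 ± 0.08, with the opposite sign. The peripubertal samples overlap both other groups on this probe. Which transcripts the 2 probes read was not tested.

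Ccnd1, Ccnd2 and Ccnd3 encode the D-type cyclins, which link growth signals to Cdk4. Ccnd2, the form that granulosa cells depend on to proliferate, read 13.63, 13.57, 13.57 and 13.65 in early-life, 13.89, 13.38, 13.67 and 14.03 in peripubertal, and 14.03, 13.93 and 13.77 in the 3 kept control samples. The early-life values sit together below all 3 control values, while the peripubertal values span both. Its differences from the control were -0.30 ± 0.18 (adjusted p = 0.463) in early-life and -0.17 ± 0.18 (adjusted p = 0.77) in peripubertal ovaries. Ccnd3 read 13.24, 12.81, 12.98 and 13.04 in early-life, 13.43, 13.35, 13.33 and 13.10 in peripubertal, and 13.31, 13.17, 13.27 and 13.15 in control ovaries. Early-life values are mostly the lowest, with replicate 1 inside the other groups, and the early-life minus peripubertal difference was -0.29 ± 0.11 (adjusted p = 0.151).

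Ccnd1 went its own way among the members. It read 11.60 and 9.98 in early-life replicates 1 and 2, 9.61, 9.87, 9.86 and 9.20 in peripubertal, and 10.71, 10.30, 9.94 and 10.52 in control ovaries. Spots of early-life replicates 3 and 4 were marked as outliers by the scanner software and left out; with them kept, they read 11.22 and 12.02. Early-life replicates 1, 3 and 4 are then the highest of the 12 samples, and every peripubertal value is below every control value. Early-life differed from peripubertal ovaries by 1.16 ± 0.52 (adjusted p = 0.222) and from the control by 0.42 ± 0.52 (adjusted p = 0.718), 1 of 2 members above 0 in that comparison (the other is Ccna2). Peripubertal differed from control ovaries by -0.73 ± 0.42 (adjusted p = 0.562). The early-life minus peripubertal value depended on single early-life samples: 0.37 without replicate 1 and 1.94 without replicate 2 (adjusted p = 0.0372).

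Oviduct markers were high in the same early-life samples as Ccnd1. The mean deviation of the oviduct list was 2.49, -0.53, 1.58 and 3.02 in early-life, -1.69, -0.91, -2.01 and -1.53 in peripubertal, and 1.11, -1.01, -1.48 and 0.96 in control ovaries. Early-life replicates 1, 3 and 4 are the highest of the 12 samples in both, and all peripubertal samples are below 0 for the oviduct list. All 7 tested oviduct markers were above 0 in early-life minus control (median 1.76; 0 of 7 called). With the mean of this list as a covariate, a fit added after the data were seen, the early-life minus peripubertal difference of Ccnd1 was 0.33 (adjusted p = 0.727). Every peripubertal value of the list lies below every early-life value, so this fit cannot tell oviduct content from group.

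Cdk4, the kinase of the D-type cyclins, read 15.09, 15.23, 15.24 and 15.12 in early-life, 15.15, 15.08, 14.27 and 14.50 in peripubertal, and 15.21, 15.22, 15.26 and 15.06 in control ovaries. Peripubertal replicates 3 and 4, which shared 1 array, are low, and the other 10 samples lie together. That gave -0.44 ± 0.19 (adjusted p = 0.427) against the control and -0.43 ± 0.16 (adjusted p = 0.21) against the mean of both groups. A second probe of Cdk4 gave -0.02 ± 0.10 for peripubertal minus control, and replicates 3 and 4 read 14.65 and 14.48 on it, among the other 2 peripubertal samples at 14.57 and 14.27. Another probe gave 0.20 ± 0.30, but without these samples, whose spots were left out. Of the remaining G1/S members, E2f1, an activating E2F factor, and Cdk2 were under 0 against the control in both deficient groups, with differences from -0.40 to -0.07 and adjusted p of 0.518 or more.

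**Figure D3:**
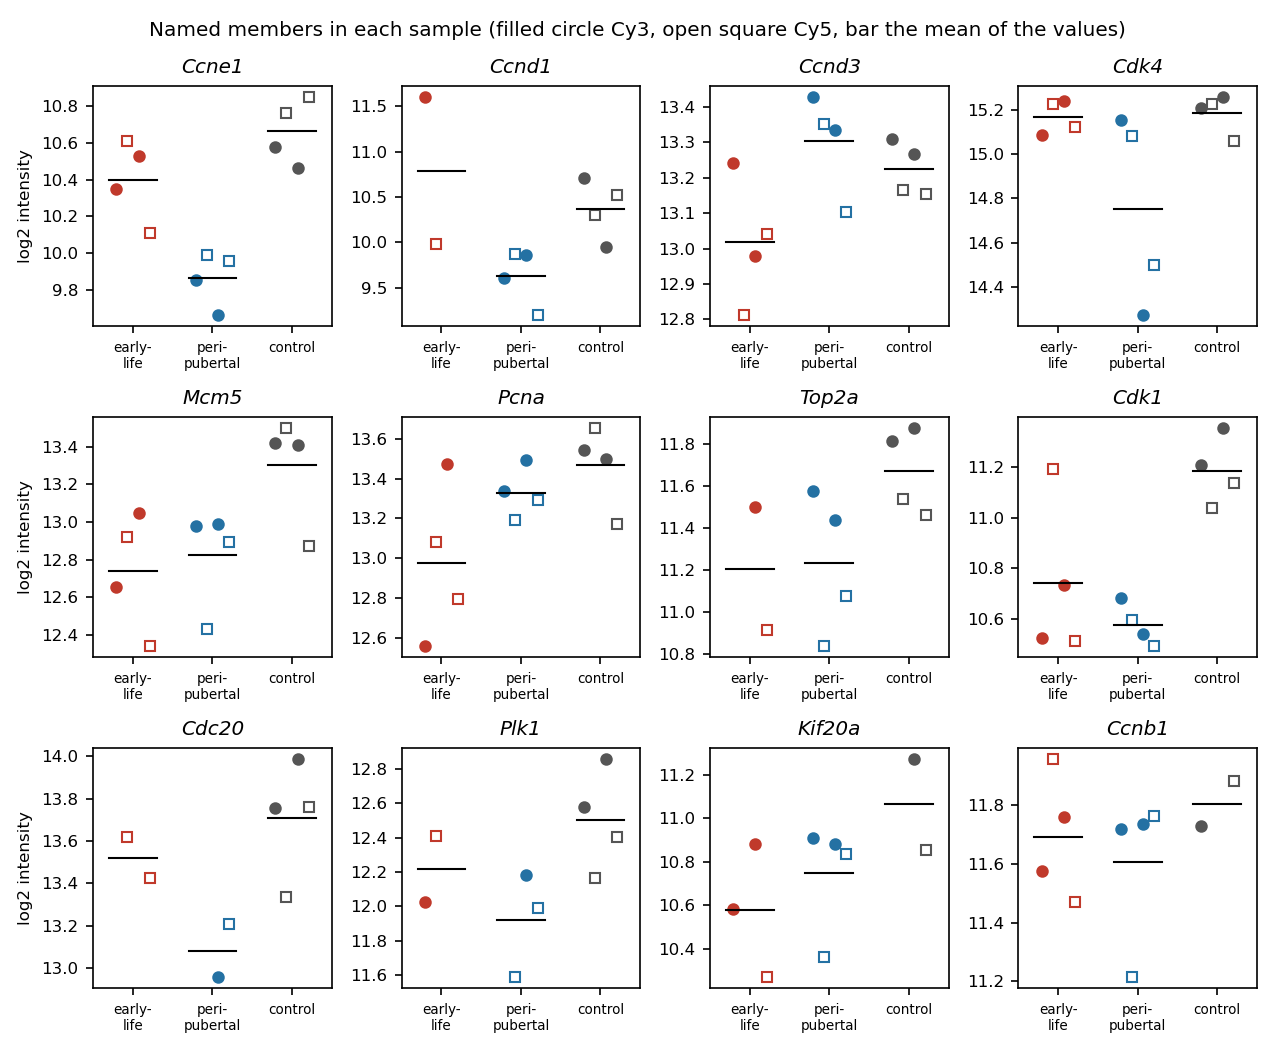
Log2 intensity of 12 named members in each sample, early-life, peripubertal and control from left to right; filled circles are Cy3 samples, open squares Cy5 samples, and bars the mean of the kept values. Peripubertal samples lie below all others for Ccne1 (9.66 to 9.99), and control samples lie above nearly all others for Cdk1 (11.04 to 11.36).

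Replication members were led by Mcm5, 1 of the 6 subunits of the helicase that opens DNA. It read 12.65, 12.92, 13.05 and 12.34 in early-life, 12.98, 12.43, 12.99 and 12.89 in peripubertal, and 13.42, 13.50, 13.41 and 12.87 in control ovaries. Control replicates 1 to 3 are the highest of the 12 samples, and control replicate 4 falls among the deficient samples. Its differences from the control were -0.56 ± 0.22 (adjusted p = 0.319) in early-life and -0.48 ± 0.22 (adjusted p = 0.449) in peripubertal ovaries. Mcm2, another helicase subunit, read 11.04, 11.33, 11.61 and 10.77 in early-life, 11.25, 10.72, 11.46 and 11.37 in peripubertal, and 11.60, 11.64 and 11.16 in the 3 kept control samples. The 3 ranges overlap, and both differences from the control were near -0.2 (-0.23 ± 0.24 and -0.21 ± 0.24, adjusted p = 0.674 and 0.783).

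Pcna, the sliding clamp of the DNA polymerases, was low mainly in early-life ovaries. Its values were 12.56, 13.08, 13.47 and 12.80 in early-life, 13.34, 13.19, 13.49 and 13.29 in peripubertal, and 13.55, 13.65, 13.50 and 13.17 in control ovaries. Early-life replicates 1, 2 and 4 are below all other samples, and replicate 3 lies among the others. The differences from the control were -0.49 ± 0.22 (adjusted p = 0.37) in early-life and -0.14 ± 0.22 (adjusted p = 0.856) in peripubertal ovaries, and that of early-life from peripubertal ovaries was -0.35 ± 0.22 (adjusted p = 0.365). Cdc6 had -0.50 ± 0.27 and -0.47 ± 0.27 against the control (adjusted p = 0.425 and 0.553), and its second probe -0.54 ± 0.21 and -0.56 ± 0.21. The remaining replication members, Cdt1, Mcm3, Mcm4, Mcm6, Mcm7, Tyms and Rrm2, ranged from -0.65 to -0.07 in early-life against control, with adjusted p of at least 0.463. Rrm2, a subunit of ribonucleotide reductase, kept only 3 early-life values and 1 control value, so its -0.65, the low end of that range and 1 of the 11 differences under 0, rests on a single control sample assumed to vary like the others.

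The replication genes varied together between animals of the same diet. As a mean deviation from the samples of the same dye, the 11 genes stood at -0.32, 0.19, 0.07 and -0.46 in early-life, -0.12, -0.30, 0.02 and 0.16 in peripubertal, and 0.19, 0.53, 0.16 and -0.11 in control ovaries. All 11 were below the mean in early-life replicates 1 and 4, and 10 of 11 in peripubertal replicate 2 and in control replicate 4. Group means were -0.13 ± 0.31, -0.06 ± 0.20 and 0.19 ± 0.26 (SD, n = 4 each), differences of about the spread within a group.

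Mitosis members were led by Top2a and Cdk1. Top2a read 11.50 and 10.91 in early-life replicates 3 and 4, 11.58, 10.84, 11.44 and 11.08 in peripubertal, and 11.81, 11.54, 11.88 and 11.46 in control ovaries. Within each dye the control samples are the highest, although the ranges overlap. Early-life differed from the control by -0.47 ± 0.14 (0.724 times; adjusted p = 0.247) and peripubertal by -0.44 ± 0.11 (0.737 times; adjusted p = 0.23). With the 2 marked early-life spots kept, at 10.58 and 11.08, the early-life value was -0.65, and in the authors' deposited value table, its sign turned for the exchanged names, -0.92.

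Cdk1, which with cyclin B drives cells into mitosis, read 10.52, 11.20, 10.73 and 10.51 in early-life, 10.68, 10.59, 10.54 and 10.49 in peripubertal, and 11.21, 11.04, 11.36 and 11.14 in control ovaries. Peripubertal samples all lie below the control samples, and of the early-life samples only replicate 2 reaches them. The differences were -0.45 ± 0.19 (adjusted p = 0.338) in early-life and -0.61 ± 0.19 (0.655 times; adjusted p = 0.27) in peripubertal ovaries, and -0.39 ± 0.16 (adjusted p = 0.24) for peripubertal against the mean of both groups. Without early-life replicate 2 the early-life difference was -0.63 and passed (adjusted p = 0.0464). A second probe of Cdk1 had -0.36 ± 0.14 and -0.29 ± 0.14 against the control.

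Ccnb1, cyclin B1, read 11.58, 11.96, 11.76 and 11.47 in early-life, 11.72, 11.21, 11.74 and 11.76 in peripubertal, and 11.73 and 11.88 in the 2 kept control samples. The groups overlap, with peripubertal replicate 2 alone at the bottom, and the differences from the control were -0.11 ± 0.22 and -0.20 ± 0.22 (adjusted p = 0.826 and 0.782). Mki67, the proliferation antigen Ki-67 that dividing cells carry, read 13.55, 13.62, 13.47 and 12.99 in early-life, 13.64, 12.76, 13.51 and 13.30 in peripubertal, and 13.69, 13.49, 13.64 and 13.30 in control ovaries. Its groups overlap as well, with low values in early-life replicate 4 and peripubertal replicate 2. The differences were -0.12 ± 0.19 and -0.22 ± 0.19 (95% intervals -0.54 to 0.30 and -0.65 to 0.20; adjusted p = 0.784 and 0.71).

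Cdc20 activates the anaphase-promoting complex, and Plk1 is the Polo-like kinase of the spindle poles. Cdc20 read 13.62 and 13.42 in early-life replicates 2 and 4, 12.95 and 13.21 in peripubertal replicates 3 and 4, and 13.76, 13.33, 13.99 and 13.76 in control ovaries. The kept peripubertal values, both from 1 array, are the lowest of the kept values, and the difference from the control was -0.63 ± 0.23 (adjusted p = 0.387). The marked spots read 13.16 and 13.42 in early-life replicates 1 and 3, and 13.22 and 12.75 in peripubertal replicates 1 and 2. With 1 sample left out this difference ran from -0.92 to -0.34. Plk1 read 12.02 and 12.41 in early-life replicates 1 and 2, 11.59, 12.18 and 11.99 in peripubertal replicates 2 to 4, and 12.58, 12.16, 12.86 and 12.40 in control ovaries. Peripubertal replicates 2 and 4 are the lowest of the kept values, and the difference from the control was -0.57 ± 0.23 (adjusted p = 0.425). The marked spots of Plk1 read 12.16 and 11.89 in early-life replicates 3 and 4, and 12.39 in peripubertal replicate 1.

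Kif20a, a kinesin needed for cytokinesis, read 10.58, 10.88 and 10.27 in early-life replicates 1, 3 and 4, 10.91, 10.36, 10.88 and 10.84 in peripubertal, and 11.27 and 10.86 in control replicates 3 and 4. Within each dye a control value is the highest, and the early-life difference was -0.56 ± 0.19 (adjusted p = 0.302). Aurkb, the kinase of the chromosomal passenger complex, was dim, well above background in 10 of 12 samples. It read 7.12, 7.39, 6.97 and 6.86 in early-life, 7.41, 7.18, 7.36 and 7.08 in peripubertal, and 7.54, 7.39, 7.52 and 7.22 in control ovaries. Early-life replicates 3 and 4 are the lowest, and the difference was -0.33 ± 0.14 (adjusted p = 0.345).

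Ccna2, cyclin A2, kept 12.59 in early-life replicate 3, 12.03, 11.77, 12.19 and 12.26 in peripubertal, and 12.18, 12.18, 12.62 and 12.44 in control ovaries. Its early-life value is 1 sample and is exceeded by 1 control sample, and the early-life minus peripubertal difference of 0.48 ± 0.24 (adjusted p = 0.273) rests on it; with the marked spots kept it was 0.31. The other 12 mitosis members are the kinases and checkpoint genes Aurka, Bub1, Bub1b, Mad2l1 and Ttk, the regulators Ccnb2, Cdc25c and Foxm1, and Birc5, Cenpa, Kif11 and Nusap1, which serve chromosomes and spindle. They ranged from -0.39 to -0.09 in early-life and from -0.45 to -0.11 in peripubertal against control ovaries. None passed in either comparison.

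**Figure D4:**
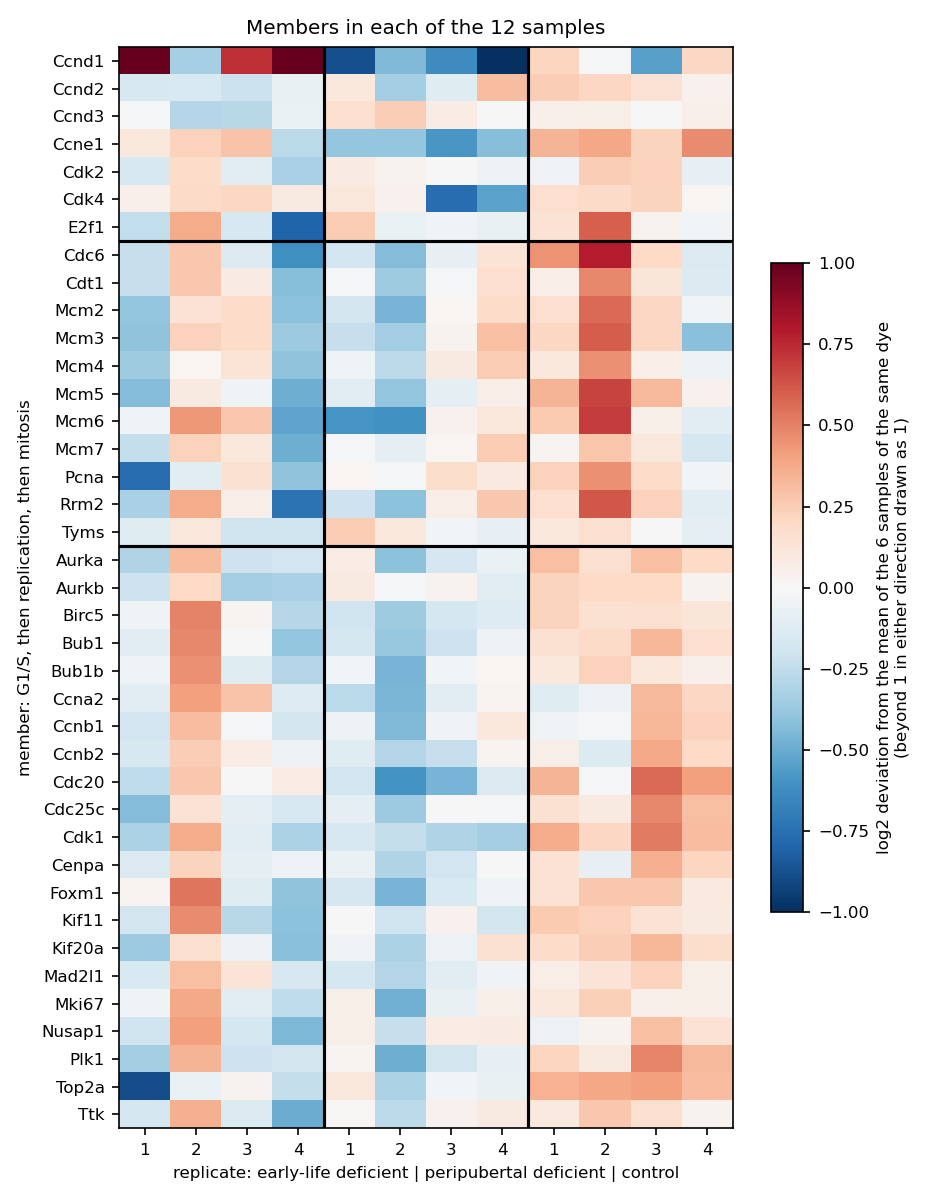
Each member (rows, by class) in each of the 12 samples (columns), as log2 deviation from the mean of the 6 samples of the same dye; red is above and blue below, and marked spots are kept. Control columns are mainly red, early-life replicate 2 is red in the mitosis rows, and early-life replicates 1 and 4 and peripubertal replicate 2 are blue.

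Samples of the same group differed widely in how many members were low. The common direction did not rest on 1 animal. With 1 sample left out, 32 to 37 members were under 0 in early-life minus control and 33 to 37 in peripubertal minus control. With marked spots kept, 35, 5, 21 and 36 of the 39 members were below the mean of the same dye in early-life replicates 1 to 4, 24, 35, 27 and 20 in peripubertal replicates 1 to 4, and 4, 6, 2 and 12 in control replicates 1 to 4. The 4 control samples all had fewer low members than 7 of the 8 deficient samples. Early-life replicate 2 is the exception, with levels like the control, and it was the highest of its group for 30 members. Peripubertal replicate 2 was the lowest of its group for 30 members, and early-life replicate 4 for 22.

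The mitosis class had a smaller spread among control samples than the replication class. The mean deviation of the mitosis class was -0.22, 0.32, -0.07 and -0.25 in early-life, -0.06, -0.35, -0.11 and -0.03 in peripubertal, and 0.16, 0.13, 0.31 and 0.18 in control ovaries. All 4 control samples were above 0, all 4 peripubertal samples below, and the early-life group held 1 sample above 0 (replicate 2, the highest of the 12) and 3 below. Group means were -0.06 ± 0.26, -0.14 ± 0.14 and 0.19 ± 0.08 (SD, n = 4 each). In control replicate 4 the classes parted: 10 of 11 replication members but 0 of 21 mitosis members were below the mean. The median spread of a member within groups was 0.25 (SD), with 0.20 for G1/S, 0.31 for replication and 0.23 for mitosis members, against 0.18 over all genes.

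**Figure D5:**
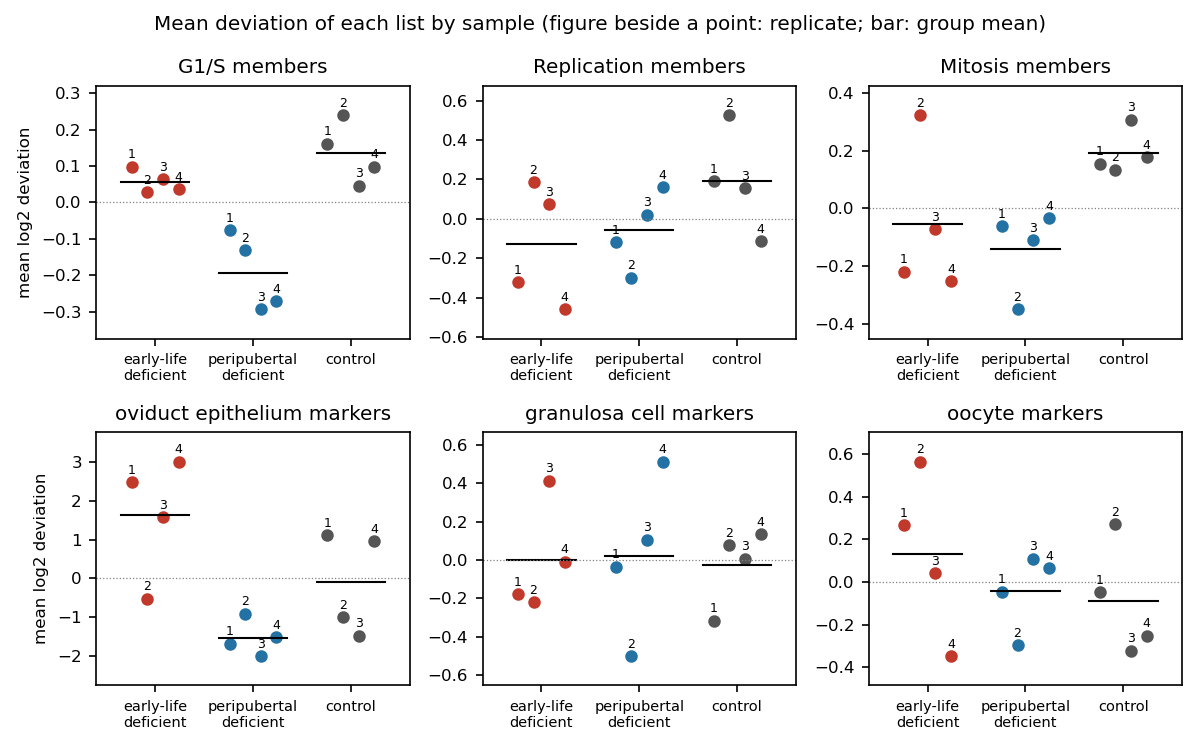
Mean log2 deviation of each member class and of 3 marker lists per sample (replicate number beside each point, bar the group mean), by group. The control samples lie at 0.13 to 0.31 for mitosis genes, the peripubertal samples at -0.35 to -0.03, and the oviduct list spans -2.01 to 3.02 over the samples.

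Markers of granulosa cells and oocytes overlapped between the groups, with 0 of 9 and 0 of 11 called in each comparison. Oocyte markers were above 0 for 10 of 11 in early-life minus control (median 0.24) and 8 of 11 in peripubertal minus control (median 0.09). For granulosa markers it was 3 of 9 and 5 of 9. Of all genes, 54.2% and 48.0% were under 0 in these comparisons. The granulosa list averaged 0.0022 ± 0.29 in early-life, 0.02 ± 0.42 in peripubertal and -0.02 ± 0.20 in control ovaries, and the oocyte list 0.13 ± 0.38, -0.04 ± 0.18 and -0.09 ± 0.27 (SD, n = 4 each). Oviduct markers moved with the low early-life samples: replicates 1 and 4, with the highest oviduct values, had the most members below the mean, and replicate 2, with the lowest in its group, had the fewest. Control replicates 1 to 4 had oviduct values of 1.11, -1.01, -1.48 and 0.96, and 4, 6, 2 and 12 members below the mean. Control replicate 1 had the highest oviduct value among the control samples and 4 members below the mean. In peripubertal ovaries the oviduct list was low in all 4 samples, and mitosis members were low there too. Macrophage markers were at -0.60 ± 0.16, 0.56 ± 0.36 and 0.04 ± 0.34, with opposite signs in the deficient groups. In early-life minus peripubertal ovaries 4 of 6 macrophage markers were called, all lower, beside 2.34% of all genes. In that comparison 1 of 6 endothelium markers and 1 of 3 tested lymphocyte markers were also called, both lower. Other lists were higher than control in both deficient groups, where the cell cycle genes were lower. The adipocyte list, 5 of 6 markers tested, averaged 1.01 ± 1.37, -0.04 ± 0.83 and -0.98 ± 0.68, with 4 of 5 markers above 0 in early-life minus control (median 2.34) and 5 of 5 in peripubertal minus control (median 0.95). The red blood cell list averaged 0.46 ± 0.73, 0.21 ± 0.60 and -0.67 ± 0.67, with 3 of 3 markers above 0 in both (medians 1.22 and 1.09). No marker of either list was called in these comparisons. The part of oviduct tissue, macrophages, fat and blood in the results was not tested.

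Other genes of the cycle followed the members where they share their class. Of 75 further genes tested, the 25 mitosis genes had 24 under 0 in early-life and 24 in peripubertal against control ovaries, with medians of -0.21 and -0.35, and none passed. The replication genes had 14 of 16 and 13 of 15 under 0, with medians of -0.19 and -0.15. Of all genes, 54.2% and 48.0% were under 0 in these comparisons. These further genes were read in the same samples against the same controls, so they are not separate evidence. Melk, a kinase of proliferating cells, read 9.55, 9.78 and 9.35 in early-life replicates 1, 3 and 4, 9.60, 9.37, 9.79 and 9.76 in peripubertal, and 9.98, 9.85, 10.29 and 9.96 in control ovaries. All control values are above all other kept values, with early-life at -0.51 ± 0.14 (adjusted p = 0.235). The spot of early-life replicate 2, the early-life sample with levels like the control, was marked and left out. Gins2, a subunit of the active helicase, had -0.41 ± 0.12 in peripubertal against control ovaries (adjusted p = 0.249).

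Inhibitors of the cycle did not show the common direction. The 10 cyclin-dependent kinase inhibitors and pocket proteins had 5 under 0 in early-life and 2 in peripubertal against control ovaries. Their medians were 0.00 and 0.07, and 54.2% and 48.0% of all genes were under 0. Cdkn1a (p21) read 10.03, 9.59, 10.30 and 11.17 in early-life, 10.69, 10.59, 10.71 and 11.32 in peripubertal, and 10.23, 9.75, 10.60 and 10.19 in control ovaries. Peripubertal replicates 1, 3 and 4 lie above all control values and replicate 2 just below the highest, with a difference of 0.63 ± 0.37 (adjusted p = 0.561). Cdkn1b (p27) differed by 0.11 ± 0.23 and 0.02 ± 0.23 from the control, with adjusted p of 0.844 and 0.984.

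Cdkn1c (p57) read 12.20, 10.71, 11.90 and 12.45 in early-life, 10.94, 11.73, 10.75 and 10.61 in peripubertal, and 11.27, 10.81, 10.94 and 10.65 in control ovaries. Early-life replicates 1, 3 and 4, the samples with high oviduct markers, are the highest, and the difference from the control was 0.90 ± 0.45 (adjusted p = 0.405). Cdkn2d, an inhibitor of Cdk4 and Cdk6, read 11.11, 11.22, 11.03 and 11.09 in early-life, 11.62, 11.36, 11.36 and 11.24 in peripubertal, and 11.70, 11.29, 11.69 and 11.73 in control ovaries. All early-life values are below all control values, by -0.49 ± 0.13 (adjusted p = 0.23).

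Among the regulators, the cyclin G1 gene Ccng1, a target of p53, was the 1 listed gene that passed. Its call did not hold in most alternatives. It rose by 1.74 ± 0.19 in peripubertal against control ovaries (adjusted p = 0.0461) and by 1.34 ± 0.16 against the mean of both groups (adjusted p = 0.0385), with 11.26, 11.21, 11.11 and 11.38 in peripubertal ovaries, 10.33 and 10.29 in early-life replicates 1 and 2, and 9.73 and 9.21 in control replicates 1 and 3. No groups overlap, and 4 values were left out as marked spots. The difference from the control stayed between 1.48 and 2.00 in 22 alternatives but missed the threshold in 15 of them: when any 1 of the 12 samples was left out, without the filter on dim probes, with a replicate block (adjusted p = 0.0788) and with the oviduct covariate (adjusted p = 0.0852). Against the mean of both groups it missed the threshold in 12 of 22, among them the replicate block (adjusted p = 0.0566) and the oviduct covariate (adjusted p = 0.111). The checkpoint kinase Chek1 and the G1 kinase Cdk6 were close to background: Chek1 read 6.93, 6.88, 6.92 and 6.79 in early-life, 7.20, 7.15, 7.19 and 7.23 in peripubertal, and 7.08, 6.95, 6.94 and 6.80 in control ovaries. It was well above background in 3 of 4 early-life, 4 of 4 peripubertal and 2 of 4 control samples, so the values of the early-life and control groups lie partly at the background and no fold is given. Its peripubertal values are the highest of the 12. Cdk6 was not well above background in any peripubertal sample, so no fold is given for it either.

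Where members had further probes, these mostly pointed the same way. For 15 further probes of 11 members, 14 had the sign of the brightest probe in early-life minus control and 13 in peripubertal minus control. In early-life minus peripubertal 10 of 15 did, and the probes with the other sign include those of Ccne1 and Cdk4 described above. The exceptions against the control were 1 of the further probes of Cdk4 in both comparisons and the second probe of Ccnd3 in the peripubertal one.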

How the data were processed

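RNA of minced ovaries, 1 female per sample, was read on 6 Agilent 2-colour arrays. The scanner files hold linear intensity values per spot, mean signal and median background, which Agilent Feature Extraction 11.0.1.1 made, per the file headers. The authors' deposited value table holds log2 values whose columns each have a median of 0; its scale steps and direction are not stated, its early-life and control columns matched the channels of the other group, and its peripubertal columns matched no channel (best correlations 0.874 to 0.897). It served as an alternative only. From the intensities, background was corrected with normexp (offset 50), dyes were normalized by loess within arrays and Aquantile between arrays, and spots marked as outliers were left out (4.84% of values of the tested genes). A probe was kept if 4 or more of the 12 samples had it well above background (24664 of 39429 probes), and each gene was read from its brightest one. limma 3.58.1 in R 4.3.3 fitted group and dye with array as a random block (correlation 0.293), with p-values adjusted over all genes. The script was tested on simulated data. Whether the 4 females of a group came from separate litters is not given in the sources used here, so p-values measure the spread between these samples. Precision is limited by the 6 arrays. Same-numbered samples were not treated as pairs.

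The members and lists were chosen with earlier results of these data known. Values in every sample are given for the 5 members with the smallest p in each comparison and always for Ccnd1, Ccnd2, Pcna, Mcm2, Mki67, Top2a, Cdk1 and Ccnb1. Of other cell cycle genes, those past the threshold or otherwise the 3 smallest p are named, and always Cdkn1a, Cdkn1b and Cdkn1c. Cdc6 is named for its promoter, after its values were seen. Alternatives covered the signal, background, normalization, filter, probe choice, marked spots, model terms, slide and each left-out sample.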

Additional observations from a re-analysis of the deposited data

Results flagged for a closer look

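Groups of 4 samples were looked at for 17 members and for the means of the member classes, 48 groups in all. Of these, 4 held a sample whose gap to its nearest neighbour as a share of the group's range was above Dixon's 95% critical value. All were groups of single members. Chance marks about 1 group in 20. Peripubertal replicate 2 stood alone at the low end for Ccnb1, at 11.21 against 11.72 to 11.76 in the other peripubertal samples (gap 0.925 of the range). It did so for Kif20a, at 10.36 against 10.84 to 10.91 (0.866), and for Mcm5, at 12.43 against 12.89 to 12.99 (0.831). Control replicate 4 stood alone at the low end for Mcm5, at 12.87 against 13.41 to 13.50 (0.858).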

How the results depend on the processing

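Alternatives were computed for the 5 members with the smallest p in each comparison, and in all of those run the sign of their difference was the same; other members were not computed singly. Of 449 such values, 439 also kept their side of the threshold and 10 passed it, all of Ccne1, Cdk1 or Ccnd1. Of the settings that keep all samples, members were called only without the array block (1 in peripubertal minus control, 1 in early-life minus peripubertal, 1 in peripubertal minus the mean of both) and without the dye term (1 in the first and 1 in the last); each was Ccne1. Leaving out 1 sample gave 0 to 1 called members in each comparison: Cdk1 (early-life minus control) and Ccnd1 (early-life minus peripubertal) without early-life replicate 2, and Ccne1 without early-life replicate 4 in the comparisons that involve peripubertal ovaries.

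Counts of all genes called depended strongly on the setting. For early-life minus control (0) they were 21 with processed signals, 4 with quantile normalization, 7 with the mean of probes, 1 with outlier spots kept, 24 without dye, 99 when arrays were not a block, 16 in the deposited value table, and 0 to 84 with 1 sample left out. For peripubertal minus control (46) they were 76 with processed signals, 19 without the filter, 26 with outlier spots kept, 78 without dye, 154 when arrays were not a block, 0 with the oviduct covariate, and 0 to 24 with 1 sample left out. For early-life minus peripubertal (441) they were 238 with processed signals, 665 with quantile normalization, 2085 without the array block, 3 with the oviduct covariate, and 2 to 1539 with 1 sample left out. For peripubertal minus the mean of both (144) they were 226 without dye, 1022 when arrays were not a block, 1 with the oviduct covariate, and 7 to 83 with 1 sample left out. Causes were not tested.

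The replicate block gave 14 genes in peripubertal minus control and 29 in peripubertal minus the mean of both, and called no member. Same-numbered samples had correlations of -0.349 to 0.546 over 12 pairs. The 3 over 0.1 were all early-life with control pairs, at 0.222, 0.546 and 0.383 for replicates 1, 2 and 4, with 0.0708 for replicate 3. Pairs with a peripubertal sample ran from -0.349 to 0.0803. The numbers were not taken as pairs, and whether early-life and control samples of the same number were related was not tested.

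With processed signals the G1/S median was -0.31 in early-life and -0.31 in peripubertal minus control. The oviduct covariate was chosen after seeing the data and cannot be told apart from group. It gave G1/S and mitosis medians of -0.0655 and -0.0130 in early-life minus control, and -0.26 and -0.51 in peripubertal minus control. In early-life minus peripubertal it left 3 members under 0, with G1/S, replication and mitosis medians of 0.33, 0.45 and 0.44, and in peripubertal minus the mean of both the medians were -0.29, -0.44 and -0.47. With 1 sample left out, the G1/S median ran from -0.30 to -0.12 in early-life minus control, -0.31 to -0.12 in peripubertal minus control, -0.13 to -0.0112 in early-life minus peripubertal, and -0.15 to 0.0254 in peripubertal minus the mean of both. The mitosis median of early-life minus control ran from -0.39 (without early-life replicate 2) to -0.10 (without early-life replicate 4), and members under 0 in early-life minus peripubertal from 10 to 26. Dim probes such as Aurkb and the second Ccne1 probe are limited by their signal over background.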
